A study of Mus musculus with 16 samples.

Results

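The genes described here are 34 genes of the piRNA pathway and the germ granule, taken by symbol from a table of 16383 mouse genes. They were PIWI proteins, Tudor domain proteins, piRNA biogenesis factors, germ granule proteins, nuclear silencing factors, the arginine methylation pair of the pathway and its transcription factors. All 34 were in the table and were found by symbol in GENCODE M21 (mouse build GRCm38). PIWI proteins carry piRNAs, short RNAs of the germline that guide the cleavage of transposon transcripts in the cytoplasm and the methylation of transposon DNA in the nucleus. Germ granules, the perinuclear bodies beside mitochondria, hold much of this machinery, and Tudor domain proteins assemble it by binding methylated arginines of PIWI proteins. In male mice, loss of many of these genes derepresses transposons and arrests spermatogenesis.

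The RNA came from undifferentiated spermatogonia, the mitotic germ cells that include the stem cells, sorted by FACS from adult mice. All animals had received busulfan, an alkylating drug that depletes germ cells, at 10 mg/kg, and cells were collected on day 10. The libraries of polyA RNA fell into 4 groups of 4: Spry4 G-KO with PD0325901 (KO_PD), Spry4 G-KO with vehicle (KO_vehicle), WT with PD0325901 (WT_PD) and WT with vehicle (WT_vehicle). PD0325901, an inhibitor of the ERK-activating kinase MEK, was injected daily at 2.5 mg/kg for 7 days from day 3, and the vehicle was 10% DMSO in PBS. G-KO is the submitters' name for the germline knockout of Spry4, a feedback inhibitor of receptor signalling to ERK. Column names of the WT libraries carry Spry4ff and those of the knockout carry GCRT_Spry4KO. As GCRT is found in the knockout names alone, an effect of it and an effect of losing Spry4 cannot be told apart. The sources used here give neither the sort markers nor the driver of the deletion, and the labels do not say that libraries of a group came from separate animals.

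Levels are the deposited FPKM, a unit of fragments scaled by gene length and by a size of the library, whose form the sources do not give. The divisors of the FPKM values, estimated from whole reads, ran from 23360600 to 36615200, so that 1 FPKM stood for 23.4 to 36.6 reads per kilobase. Estimated reads in listed genes were above the divisor in WT_PD 3 (36307994 against 32258800) and below it in WT_PD 2 (24995898 against 28814600). What the divisors count was not tested. Spry4 averaged 12.9 ± 4.71 FPKM in KO_PD and 11.01 ± 3.13 FPKM in KO_vehicle, against 21.4 ± 4.89 FPKM in WT_PD and 22.1 ± 1.66 FPKM in WT_vehicle (SD, n = 4 each). Knockout and WT did not overlap under vehicle, but under PD0325901 the highest knockout library (19.3 FPKM) lay above the lowest WT library (15.9 FPKM). Of the listed genes of undifferentiated spermatogonia, the transcription factor Zbtb16 ran from 85.6 to 125 FPKM and Utf1 from 2.20 to 4.78 FPKM. Genes of later stages were present too. Stra8, of differentiating spermatogonia, ran from 10.3 to 33.8 FPKM, and the meiotic gene Sycp3 from 17.0 to 77.7 FPKM. The highest Sycp3 value stood in KO_vehicle 3. Transcripts of peritubular myoid (contractile) cells were also abundant and uneven, with smooth muscle actin Acta2 between 367 and 5095 FPKM. All 10 contractile genes were detected, and their summed level ran from 3509 to 10190 FPKM in KO_PD, 1441 to 7433 FPKM in KO_vehicle, 1222 to 12460 FPKM in WT_PD and 2608 to 8096 FPKM in WT_vehicle. The library KO_vehicle 3 stood apart in spermatid transcripts, with the protamine gene Prm1 at 739 FPKM. The summed level of 16 spermatid genes, 13 of them above the filter, reached 167 FPKM in KO_PD, 3319 FPKM in KO_vehicle, 139 FPKM in WT_PD and 116 FPKM in WT_vehicle. That of 12 meiotic genes reached 200 FPKM in KO_PD, 448.5 FPKM in KO_vehicle, 204 FPKM in WT_PD and 188 FPKM in WT_vehicle. A bulk library cannot tell fewer cells of a type from less RNA per cell.

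Of the 34 members, 33 reached 1 FPKM in at least 4 libraries and were tested, and 32 did so in all 16. That was 97.1% of members and 78.8% of all listed genes. At 50 FPKM in at least 4 libraries, the shares were 29.4% of members and 5.22% of genes. For 23 of the 33 tested members the highest library was less than 2 times the lowest, as the plot of levels by library shows. The member below the filter was Tdrd6, a chromatoid body protein of spermatids, at 0.255 to 1.51 FPKM, which was left out of the tests. Its highest value stood in KO_vehicle 3.

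**Figure D1:**
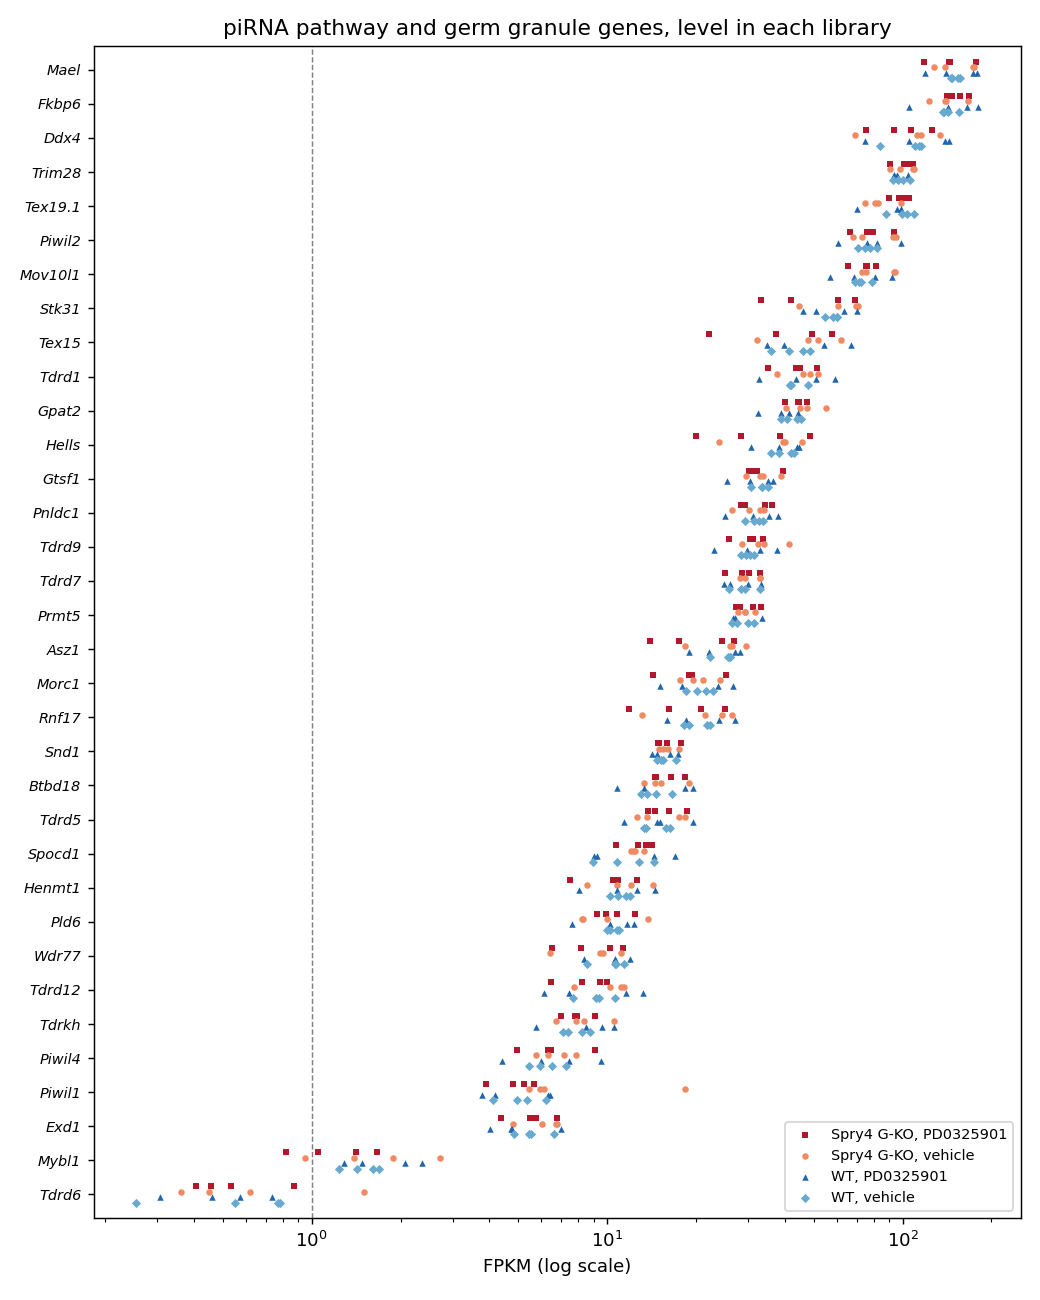
Level of each of the 34 genes (FPKM, log scale) in each of the 16 libraries, ordered by mean level, with 1 point per library and colour and marker by group. The dashed line marks 1 FPKM. Each pair of groups compared overlaps for all 33 genes above the filter, and the Piwil1 point at 18.4 FPKM is KO_vehicle 3.

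Promoter sequence is shown for 5 members: Mael, Ddx4 and Mov10l1, of the genes followed throughout, and the PIWI genes Piwil4 and Piwil1. No window with TCCCGC alone is among them. RefSeq windows on GRCm38.p6 of 250 bases before to 50 bases after the start were found for 26 of the 34 members. They were searched on both strands for CACGTG, an E-box that reads the same on both strands, and for TCCCGC, whose other strand reads GCGGGA. The motifs share no bases in the windows shown, and capitals mark them. The Mael window is chr1:166238695-166238994, minus strand. The Ddx4 window is chr13:112652261-112652560, minus strand. The Mov10l1 window is chr15:88982744-88983043, plus strand. Piwil4 had 2 windows, and neither motif was found in them. The Piwil4 window shown is chr9:14740623-14740922, minus strand. The Piwil1 window is chr5:128735996-128736295, plus strand, and its start lies 33722 bases from the GENCODE gene start.
Mael: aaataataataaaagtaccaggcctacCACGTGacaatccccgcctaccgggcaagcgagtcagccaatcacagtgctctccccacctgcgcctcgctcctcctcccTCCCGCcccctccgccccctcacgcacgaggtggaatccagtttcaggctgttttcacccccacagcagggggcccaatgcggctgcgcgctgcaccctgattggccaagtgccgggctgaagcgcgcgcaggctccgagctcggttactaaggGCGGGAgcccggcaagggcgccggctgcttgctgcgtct
Ddx4: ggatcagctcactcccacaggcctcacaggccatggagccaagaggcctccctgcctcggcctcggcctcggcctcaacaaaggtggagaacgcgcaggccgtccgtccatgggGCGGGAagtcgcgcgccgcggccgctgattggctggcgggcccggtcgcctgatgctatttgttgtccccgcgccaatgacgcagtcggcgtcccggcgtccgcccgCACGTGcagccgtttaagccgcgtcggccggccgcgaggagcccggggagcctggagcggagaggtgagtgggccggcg
Mov10l1: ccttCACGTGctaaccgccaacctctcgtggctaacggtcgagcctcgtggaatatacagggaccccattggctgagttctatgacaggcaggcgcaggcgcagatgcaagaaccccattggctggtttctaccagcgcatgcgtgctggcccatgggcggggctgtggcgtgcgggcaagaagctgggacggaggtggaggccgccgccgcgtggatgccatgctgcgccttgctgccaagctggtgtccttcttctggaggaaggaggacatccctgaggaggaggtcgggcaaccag
Piwil4: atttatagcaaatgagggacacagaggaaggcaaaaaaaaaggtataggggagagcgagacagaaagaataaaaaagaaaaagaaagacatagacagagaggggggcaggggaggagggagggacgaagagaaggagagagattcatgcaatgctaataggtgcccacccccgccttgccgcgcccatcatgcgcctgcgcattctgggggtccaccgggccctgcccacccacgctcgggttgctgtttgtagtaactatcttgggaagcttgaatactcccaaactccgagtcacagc
Piwil1: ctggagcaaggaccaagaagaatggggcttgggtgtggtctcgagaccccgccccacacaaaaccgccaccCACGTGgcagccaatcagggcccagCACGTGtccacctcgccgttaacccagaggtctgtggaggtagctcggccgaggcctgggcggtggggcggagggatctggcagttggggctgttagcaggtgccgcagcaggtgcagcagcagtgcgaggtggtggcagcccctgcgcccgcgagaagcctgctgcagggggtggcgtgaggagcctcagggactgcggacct
CACGTG stood in 10 of the 26 member windows (38.5%), against 8.09% of 27025 genes with a window and 12.3% of 9736 tested genes with one. TCCCGC was found for 11 members (42.3%), against 22.1% of all and 41.4% of tested genes. Ddx4, Mael and Wdr77 held both. A match describes letters in the window and is not a bound site, and a relation of motifs to levels was not tested.

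The PIWI proteins differed in level. Piwil2, which encodes MILI, the cytoplasmic slicer of transposon RNA, had 75.7, 93.9, 79.3 and 66.5 FPKM in KO_PD and 72.9, 95.2, 92.8 and 68.2 FPKM in KO_vehicle. It had 98.9, 82.0, 60.5 and 75.9 FPKM in WT_PD and 82.0, 77.8, 74.6 and 70.9 FPKM in WT_vehicle. All groups overlapped, and the lowest and highest values both stood in WT_PD. Piwil4, which encodes MIWI2, the nuclear PIWI protein of fetal germ cells, had 6.48, 9.07, 6.32 and 4.97 FPKM in KO_PD and 6.34, 7.87, 7.17 and 5.76 FPKM in KO_vehicle. It had 9.52, 7.41, 4.43 and 5.98 FPKM in WT_PD and 7.24, 6.52, 5.43 and 5.91 FPKM in WT_vehicle. Within a library, the Piwil2 level was 10.3 to 13.7 times that of Piwil4, with a median of 11.97, both being values per length. Piwil1, which encodes MIWI, the PIWI protein of meiotic and haploid germ cells, had 5.25, 5.68, 4.82 and 3.88 FPKM in KO_PD and 5.43, 6.13, 18.4 and 5.92 FPKM in KO_vehicle. It had 6.40, 6.32, 4.17 and 3.76 FPKM in WT_PD and 6.22, 4.13, 4.95 and 5.34 FPKM in WT_vehicle. Its value of 18.4 FPKM in KO_vehicle 3 was the only one above 6.40.

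Among Tudor domain proteins, Stk31, which joins a Tudor domain to a kinase-like domain, averaged 57.1 ± 11.1 FPKM (SD, n = 16, as for the means that follow). Tdrd1, the MILI partner of the cement between mitochondria, averaged 44.9 ± 6.77 FPKM. Tdrd9, a helicase that works with MIWI2 in the fetal germline, averaged 31.3 ± 4.26 FPKM. Tdrd7, a chromatoid body protein, averaged 29.4 ± 2.97 FPKM, and Rnf17, a Tudor protein of meiotic and haploid cells, averaged 20.4 ± 4.58 FPKM. Snd1, a Tudor nuclease found in most tissues, averaged 15.8 ± 1.11 FPKM, and Tdrd5, needed for the chromatoid body, averaged 15.3 ± 2.31 FPKM. Tdrd12, a factor of secondary piRNA production, averaged 9.36 ± 1.99 FPKM, and Tdrkh, which holds PIWI proteins at mitochondria for trimming, averaged 8.19 ± 1.33 FPKM. These neighbours overlapped in range.

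Of the biogenesis factors, Fkbp6, a co-chaperone of piRNA loading, averaged 147 ± 18.4 FPKM. Mov10l1, the helicase that feeds precursors to processing, had 75.2, 81.2, 75.8 and 65.4 FPKM in KO_PD and 75.5, 93.9, 94.1 and 72.8 FPKM in KO_vehicle. It had 92.2, 80.9, 56.8 and 68.4 FPKM in WT_PD and 78.9, 69.3, 72.6 and 71.1 FPKM in WT_vehicle. All groups overlapped. Gpat2, a mitochondrial protein of the acyltransferase family that binds MILI, averaged 43.1 ± 4.98 FPKM. Pnldc1, the nuclease that trims piRNA ends, averaged 31.8 ± 3.52 FPKM, and Asz1, a scaffold of the mitochondrial outer membrane, averaged 23.7 ± 4.42 FPKM. Henmt1, which methylates piRNA ends, averaged 11.1 ± 1.99 FPKM, Pld6, the mitochondrial endonuclease that cuts precursors, 10.4 ± 1.64 FPKM, and Exd1, the partner of TDRD12, 5.60 ± 0.961 FPKM.

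Of the germ granule proteins, Mael, which encodes maelstrom, averaged 151 FPKM over the 16 libraries. It lay above Fkbp6 in 10 of them, and in KO_PD the mean of Fkbp6 (153 FPKM) was above that of Mael (146 FPKM). Mael had 145, 178, 143 and 118 FPKM in KO_PD and 140, 174, 174 and 127 FPKM in KO_vehicle. It had 178, 173, 119 and 140 FPKM in WT_PD and 154, 156, 147 and 146 FPKM in WT_vehicle. The groups overlapped, and WT_vehicle had the narrowest range. Ddx4, the VASA helicase that marks germ cells, had 107, 126, 93.5 and 75.1 FPKM in KO_PD and 112, 134, 115 and 68.8 FPKM in KO_vehicle. It had 144, 139, 74.7 and 105 FPKM in WT_PD and 115, 110, 84.1 and 113 FPKM in WT_vehicle. Low values stood in KO_PD 4, KO_vehicle 4, WT_PD 3 and WT_vehicle 3, 1 library of each group. Tex19.1, a mammal-specific protein that limits transposon mobility, averaged 93.4 ± 11.3 FPKM, and Gtsf1, a cofactor of PIWI cleavage, 33.1 ± 3.52 FPKM.

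Of the nuclear factors, Trim28, the corepressor recruited by KRAB zinc finger proteins, averaged 99.7 ± 6.63 FPKM. Tex15, a nuclear partner of MILI and MIWI2 silencing, averaged 45.5 ± 11.8 FPKM. Hells, a chromatin remodeller that supports DNA methylation, averaged 37.6 ± 8.03 FPKM, and Morc1, a germline silencing ATPase, 20.5 ± 3.51 FPKM. Spocd1, which links MIWI2 to DNA methylation, averaged 12.4 ± 2.21 FPKM. Prmt5, the methyltransferase that marks PIWI arginines, averaged 29.2 ± 2.33 FPKM, and its partner Wdr77 averaged 9.74 ± 1.69 FPKM. Btbd18, a nuclear factor that promotes transcription of pachytene piRNA genes, averaged 15.4 ± 2.45 FPKM. Mybl1, which encodes A-MYB, the transcription factor of the same genes, averaged 1.57 ± 0.504 FPKM and was below 1 FPKM in 2 libraries. In the order of mean levels, ranges of neighbours overlapped everywhere except between Exd1 and Mybl1.

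Loss of Spry4 was not accompanied by a called change in any of these genes. Under PD0325901, 0 of 33 members passed in knockout against WT, as did 0% of the 12907 genes tested by limma, and under vehicle 0 of 33 passed against 0% of genes (adjusted p under 0.05). Spry4 itself was tested and not called in either, with means of 11.01 FPKM in KO_vehicle and 22.05 FPKM in WT_vehicle. A gene with a difference of that size could therefore go uncalled. At an unadjusted p under 0.05, 605 genes and 0 members passed under PD0325901, and 251 genes and 0 members under vehicle. No member had libraries that did not overlap between knockout and WT, against 2.28% of genes under PD0325901 and 1.46% under vehicle. Under PD0325901, 15 members were higher and 18 lower in knockout, with a median log2 difference of -0.0048 (all genes -0.01). Under vehicle, 24 were higher and 9 lower, with a median of 0.05 (all genes -0.01). Each log2 difference given here was taken after adding 0.5 to the FPKM. These counts lie beside differences in other transcripts between the same groups: under PD0325901 all 10 contractile and 12 of 13 tested spermatid genes were higher in knockout, and under vehicle 9 of 10 contractile genes were lower and 12 of 13 spermatid genes higher, none of them called. With the means of both lists as terms, the balance of directions turned round in both comparisons. Then 24 members were higher and 9 lower under PD0325901 (median 0.09), and 12 were higher and 21 lower under vehicle (median -0.03). By limma, 0 genes were called in either. The smallest adjusted p of a member was 0.213 (Btbd18) under PD0325901 and 0.992 under vehicle.

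The members with the smallest p stayed within the spread. Under PD0325901, the log2 differences were -0.40 for Mybl1 (SE 0.23, adjusted p = 0.988), 0.17 for Gpat2 (SE 0.11) and -0.24 for Asz1 (SE 0.19), the last pair at adjusted p = 0.9998. Under vehicle they were -0.25 for Tex19.1 (SE 0.12), 0.57 for Piwil1 (SE 0.30) and 0.19 for Mov10l1 (SE 0.13), each at adjusted p = 0.9998. Without KO_vehicle 3, the Piwil1 difference was 0.17. For the genes followed throughout, the differences under PD0325901 were 0.0024 for Piwil2, -0.0048 for Piwil4, -0.05 for Piwil1, -0.18 for Ddx4, 0.01 for Mov10l1 and -0.06 for Mael. Under vehicle they were 0.09 for Piwil2, 0.10 for Piwil4, -0.0050 for Ddx4 and 0.01 for Mael. The 95% interval lay within 2-fold in either direction for 33 of 33 members under PD0325901 and 32 under vehicle, and within 1.5-fold for 24 under PD0325901 and 29 under vehicle. Over both treatments, 0 of 33 members passed (0% of genes, and 561 genes and 0 members at an unadjusted p under 0.05). The smallest p values there belonged to Gpat2 at 0.16 (SE 0.08), Wdr77 at -0.19 (SE 0.13) and Piwil1 at 0.26 (SE 0.22), at adjusted p = 0.998.

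PD0325901 likewise gave no called member. In knockout cells, 0 of 33 passed, against 0% of genes, with 382 genes and 0 members at an unadjusted p under 0.05. In WT cells, 0 of 33 passed, against 0% of genes, with 115 genes and 0 members at an unadjusted p under 0.05. No member separated the groups without overlap, against 1.70% of genes in knockout cells and 0.659% in WT cells. In knockout cells, 8 members were higher and 25 lower with PD0325901 (median -0.08, all genes 0.0017). In WT cells, 18 were higher and 15 lower (median 0.0049, all genes 0.0084). Other transcripts moved between the same groups: in knockout cells all 10 contractile genes were higher and all 13 tested spermatid genes lower with PD0325901, and in WT cells all of both lists were lower. With the means of both lists as terms, 16 members were higher and 17 lower in knockout cells (median -0.0027), and 2 higher and 31 lower in WT cells (median -0.10), and 0 genes were called in either.

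In knockout cells, the members with the smallest p were Piwil1 at -0.63 (SE 0.30), Tex19.1 at 0.23 (SE 0.12) and Asz1 at -0.29 (SE 0.19), each at adjusted p = 0.968. Without KO_vehicle 3, the Piwil1 difference was -0.24. In WT cells they were Tex19.1 at -0.15 (SE 0.12), Gpat2 at -0.11 (SE 0.11) and Exd1 at -0.14 (SE 0.16), at adjusted p = 0.9999. In knockout cells the genes followed differed by -0.06 for Piwil2, -0.04 for Piwil4, -0.08 for Ddx4, -0.17 for Mov10l1 and -0.08 for Mael. In WT cells they differed by 0.03 for Piwil2, 0.07 for Piwil4, -0.02 for Piwil1, 0.09 for Ddx4, 0.01 for Mov10l1 and -0.0043 for Mael. Over both genotypes, 0 of 33 members passed, against 0% of genes, with 238 genes and 0 members at an unadjusted p under 0.05. The smallest p values were those of Piwil1 at -0.33 (SE 0.22), Asz1 at -0.18 (SE 0.14) and Gpat2 at -0.10 (SE 0.08).

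**Figure D2:**
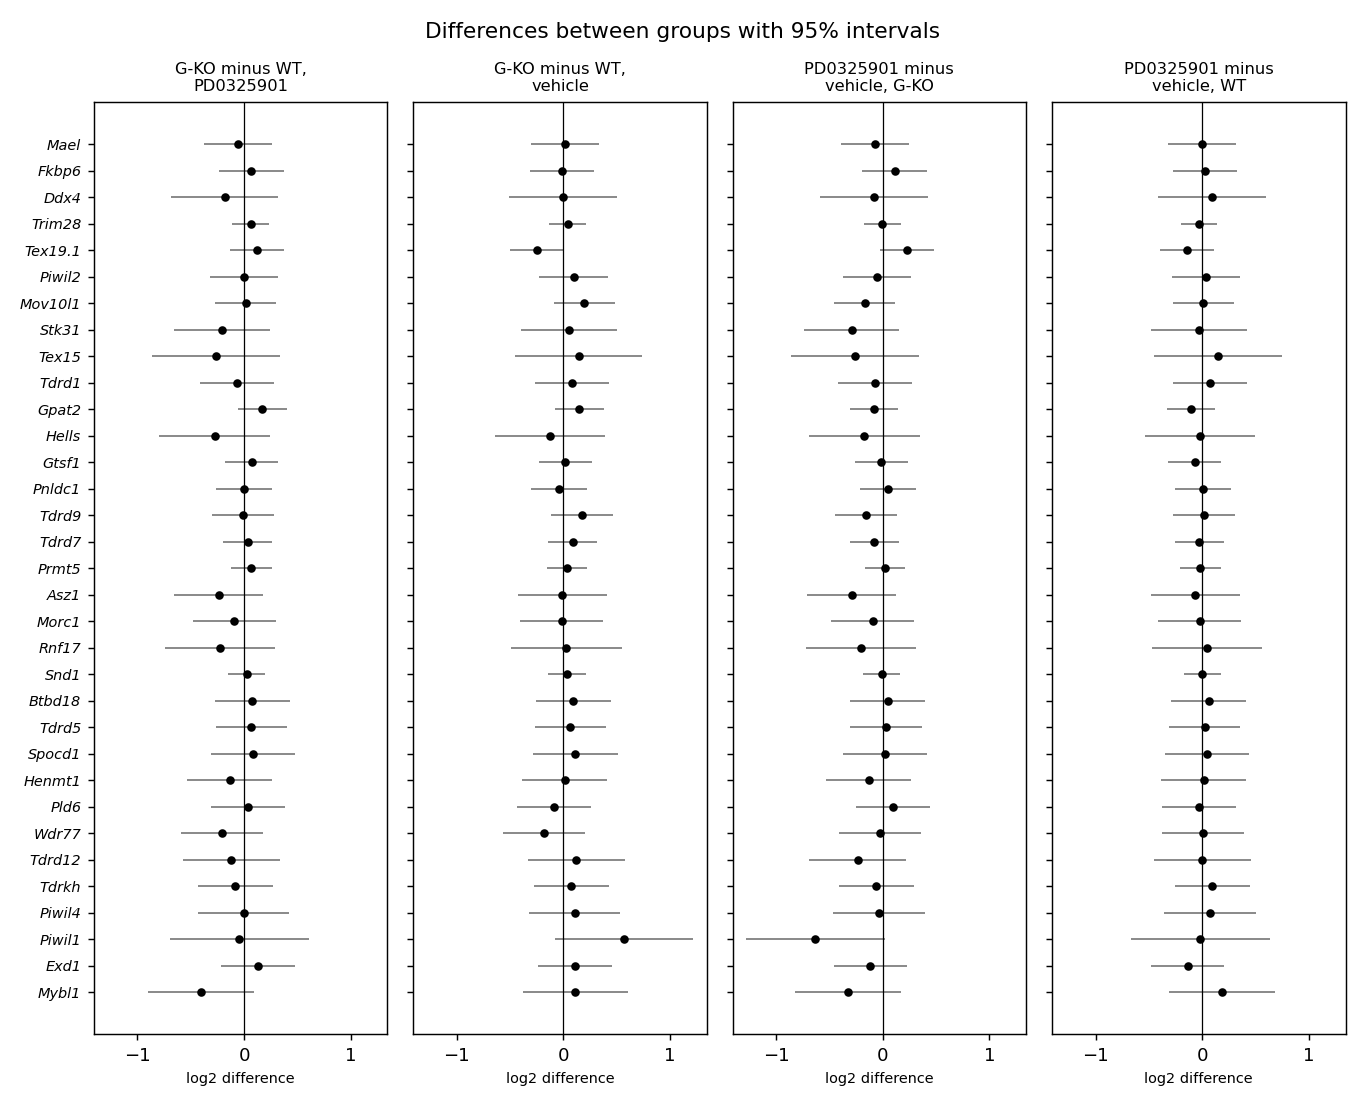
Log2 difference between groups, on the log2(FPKM + 0.5) scale, for the 33 tested members (rows, by mean level) in 4 comparisons, with points for estimates and bars for 95% intervals. None of the adjusted p-values passed 0.05, and the Piwil1 bars are the widest.

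The response to PD0325901 was also set against genotype directly. The interaction is the PD0325901 difference in knockout minus that in WT, and 0 of 33 members passed against 0% of genes (1.71% of genes and 1 member at an unadjusted p under 0.05). That member was Tex19.1, at 0.37 (SE 0.17, unadjusted p = 0.0423, adjusted p = 0.999). Its levels were 89.8, 105, 101 and 97.3 FPKM in KO_PD and 80.5, 82.8, 98.8 and 74.9 FPKM in KO_vehicle, against 95.8, 98.7, 70.3 and 99.1 FPKM in WT_PD and 87.7, 99.3, 104 and 109 FPKM in WT_vehicle. WT_PD 3 was the lowest of its group, and without it the interaction was 0.25. Mybl1 stood at -0.52 (SE 0.33) and Piwil1 at -0.61 (SE 0.43), or -0.22 for Piwil1 without KO_vehicle 3. The other genes followed were at -0.09 for Piwil2, -0.11 for Piwil4, -0.18 for Ddx4, -0.18 for Mov10l1 and -0.07 for Mael. Of all 33 members, 10 were above 0 and 23 below, with a median of -0.07 (all genes -0.01). The contractile list stood at a median of 1.15 in the same interaction, with 10 of 10 genes above 0, and 9 of 13 spermatid genes were below 0. With the means of both lists as terms, 26 members were above 0 and 7 below (median 0.11), and 0 genes were called. Under those terms the values were 0.12 for Piwil2, 0.20 for Piwil4, 0.16 for Ddx4, 0.02 for Mov10l1 and 0.14 for Mael, so each of these 5 changed sign, and Tex19.1 stood at 0.46. Without the terms, the 95% interval of the interaction lay within 1.5-fold for 14 members and within 2-fold for 30, so smaller differences in response were not resolved for most.

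The members, like all genes tested, varied among libraries mainly within groups. Their median SD over the 16 libraries was 0.22 on the log2 scale, against 0.20 for all genes tested, and 20 of 33 members lay above the value for all genes. Groups held 6.03% of a member's variance in the median, against 12.7% for all genes. Piwil1 (SD 0.49), Tex15 (0.40) and Hells (0.35) varied most, and Trim28 (0.095), Snd1 (0.097) and Prmt5 (0.11) least.

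Much of that variation ran with contractile transcripts. For each gene, a slope was fitted within groups on the mean of 10 contractile genes, with the mean of 13 spermatid genes as a further term, and is the log2 change per doubling of contractile transcripts. Of 33 members, 28 were lower in libraries with more contractile transcripts, against 20.6% of 12884 genes, and 1 was higher, against 32.2% of genes. With libraries shifted to the same median, 3003 genes were higher and 4930 lower, where the deposited scale gave 4145 higher and 2657 lower. Under that scaling 31 members were lower and 0 higher. The median slope was -0.18 for members and 0.01 for all genes. Both terms together held 70.4% of a member's within-group variance in the median, against 49.4% for all genes.

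All 3 PIWI genes were lower: Piwil4 by slope -0.27 (SE 0.04, adjusted p = 0.000109), Piwil2 by -0.18 (SE 0.04, adjusted p = 0.00102) and Piwil1 by -0.20 (SE 0.06, adjusted p = 0.0113). In the Tudor group 8 of 9 were lower, led by Tdrd12 at -0.29 (SE 0.04, adjusted p = 1.6e-05). The level of Tdrd12 was 11.6 FPKM in WT_PD 2, where the contractile mean was lowest (5.49 on the log2 scale), and 6.13 FPKM in WT_PD 3, where it was highest (8.89). Snd1 was the exception at 0.09 (SE 0.02, adjusted p = 0.00213), and with libraries shifted to the same median its slope was 0.03 at adjusted p = 0.285. Of 8 biogenesis factors 7 were lower, Mov10l1 by -0.18 (SE 0.03, adjusted p = 0.000141). Of 4 germ granule genes 3 were lower, Ddx4 at -0.30, Mael at -0.18 and Gtsf1 at -0.12. Of 5 nuclear factors 4 were lower, with Tex15 the steepest of all members at -0.32 (SE 0.08). Btbd18 at -0.21 (adjusted p = 6.4e-05) and Mybl1 at -0.23 were lower, as was Wdr77 at -0.15. Gpat2, Prmt5, Tex19.1 and Trim28 did not pass, and the Trim28 slope of 0.03 was -0.03 with libraries shifted to the same median.

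**Figure D3:**
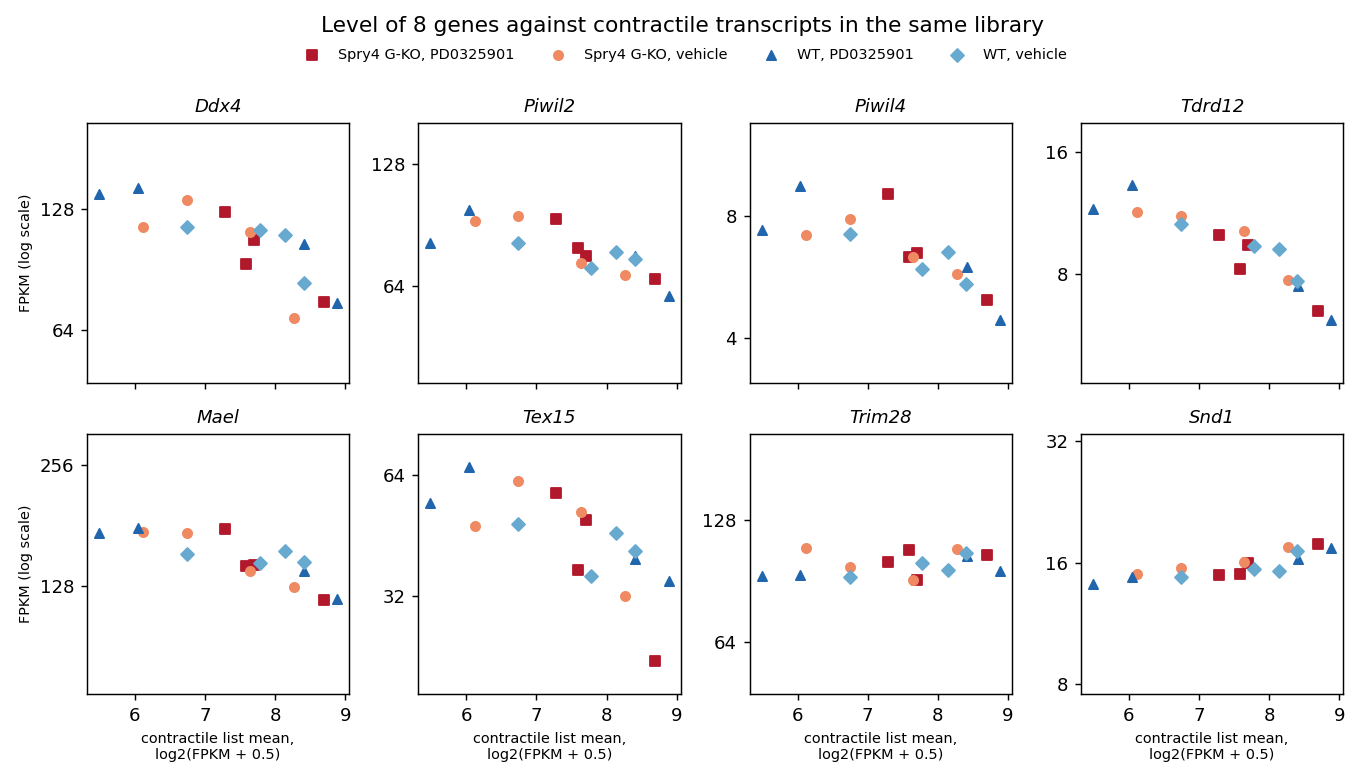
Level of 8 members (FPKM, log scale spanning about the same fold in every panel) against the mean log2(FPKM + 0.5) of the contractile list, 1 point per library. Ddx4, Piwil2, Piwil4, Tdrd12, Mael and Tex15 are lower at the right end than at the left. Snd1 is higher at the right (slope 0.09, or 0.03 and not called with libraries shifted to the same median), and the Trim28 slope of 0.03 is -0.03 under that shift.

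**Figure D4:**
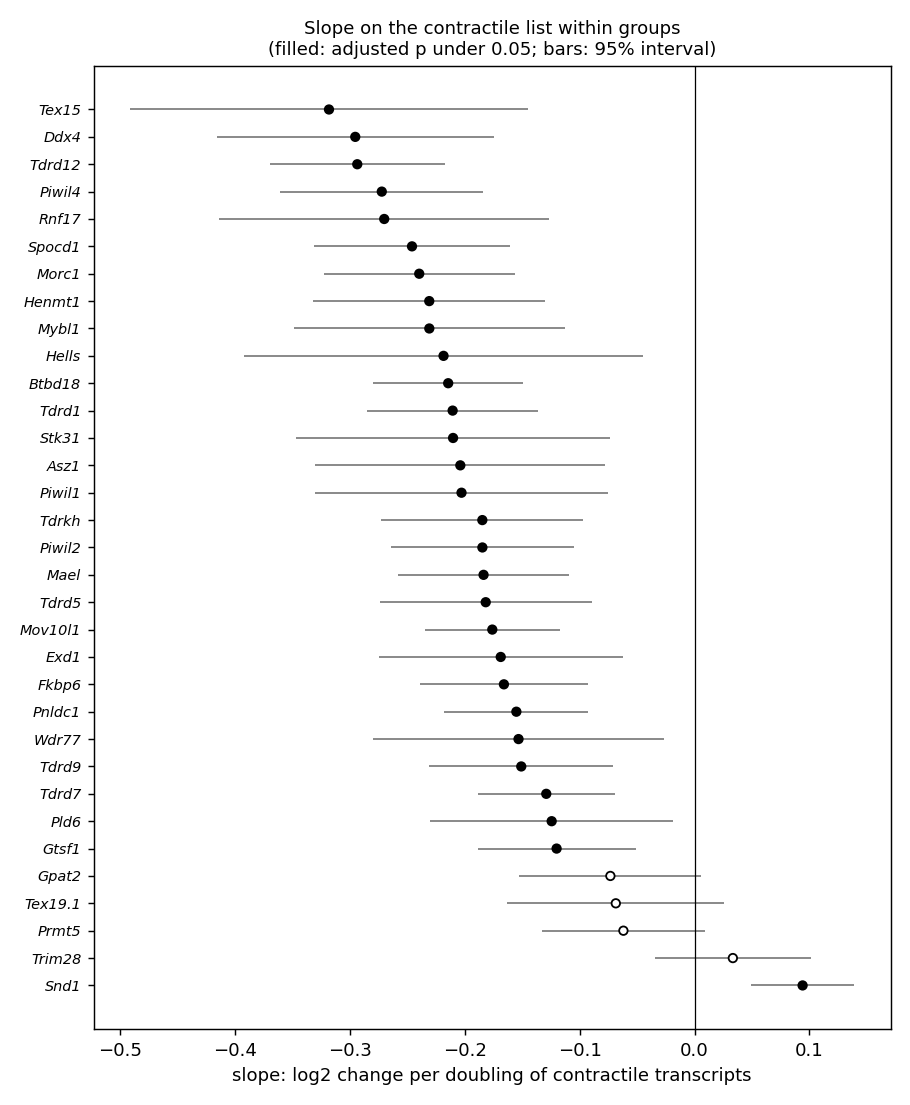
Slope of each of the 33 tested members on the contractile list within groups, with 95% intervals, in log2 change per doubling of contractile transcripts. Filled points pass adjusted p 0.05, and Tex15, Ddx4 and Tdrd12 are the 3 steepest. With libraries shifted to the same median, Snd1 loses its call and Trim28 changes sign.

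The number of members called lower was 21 to 29 when single libraries were left out, and it changed with library numbers. Without WT_PD 3, the library with the most contractile transcripts, 21 members and 1607 genes (12.5%) were lower. Without WT_PD 1, 1756 genes (13.7%) were lower. Column names carry numbers from 440 to 447 for replicates 1 and 2 and from 448 to 455 for replicates 3 and 4, and what these sets mean is not stated. With the set as a term, 21 members were lower, against 16.2% of genes, and 1 was higher, against 26.9%. Of the members named above as lower, 3 were not called by limma with that term. They were Tex15 at -0.15 (adjusted p = 0.179), Wdr77 at -0.06 (adjusted p = 0.499) and Gtsf1 at -0.11 (adjusted p = 0.0529). Others counted above also lost the call: Rnf17 (limma adjusted p = 0.149), Exd1 (0.174), Asz1 and Stk31 (each 0.293) and Hells (0.525). Gpat2, not called above, was called lower with the set term, at -0.16 (limma adjusted p = 0.00476). Piwil1 was then the steepest member, at -0.29. Within single sets the slope was fitted with 1 mean for all groups in place of group means, so that 2 choices differ from the fit above. Within the first set 30 of 33 slopes were below 0 (median -0.10), and within the second 32 of 33 (median -0.23), with 5 and 4 members called, where 1.68% and 1.06% of genes were called lower. Trim28 was the 1 member called between the sets themselves, higher by 0.20 in the second (adjusted p = 0.0438, against 3.14% of genes). Of 14 genes of undifferentiated spermatogonia, 7 were also lower on the contractile slope, Zbtb16 at -0.12 among them (median -0.13, against 0.01 for all genes and 20.6% of genes lower). With libraries shifted to the same median, 11 of the 14 were lower, against 38.3% of genes. Other germ cell lists differed. Of 7 genes of differentiating spermatogonia 0 were called, with 5 slopes above 0 and 2 below (median 0.02). Under the median shift 1 of these 7 was lower. Of 11 tested meiotic genes, 6 were lower and 1 higher, against 20.6% and 32.2% of genes. The part of the cell content in the members' slopes was not tested.

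Piwil1 was the 1 member called on the spermatid slope, at 0.16 (SE 0.04, adjusted p = 0.0435), against 1.75% of genes. That call rested on KO_vehicle 3, where the spermatid mean was 6.76 on the log2 scale and lay between 0.196 and 2.98 in the other 15 libraries. Without that library the slope was 0.02, and 51 genes (0.397%) were called. Without KO_vehicle 2, 145 genes were called, and leaving out any of 11 single libraries left 0 members called. Tdrd6, below the filter, had 1.51 FPKM there and at most 0.875 FPKM elsewhere. Mybl1 had 2.72 FPKM there, and 2.36 FPKM in WT_PD 1, the next highest library. The meiotic gene Sycp3 was also highest in KO_vehicle 3, at 77.7 FPKM, and the part of meiotic transcripts was not tested.

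**Figure D5:**
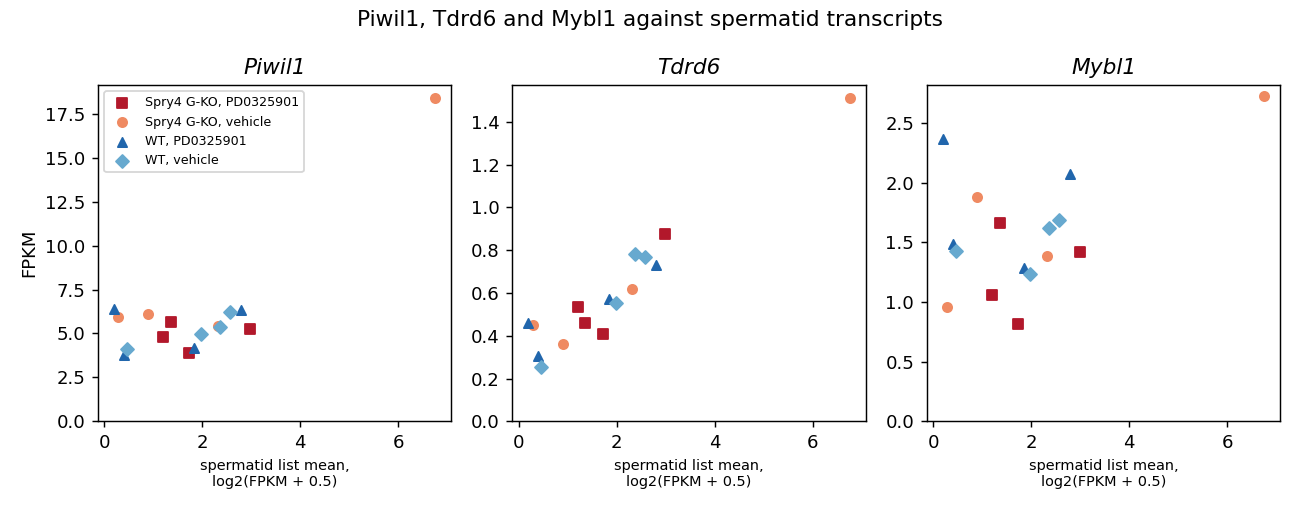
Level of Piwil1, Tdrd6 and Mybl1 (FPKM, linear axis from 0) against the mean log2(FPKM + 0.5) of the spermatid list, 1 point per library. KO_vehicle 3, at 6.76 on the horizontal axis, is the highest library for each of the 3 genes.

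Of 16 other piRNA and germ granule genes, 16 were tested and 0 were called between groups, and on the contractile slope 9 were lower and 0 higher, against 20.6% of genes lower and 32.2% higher. With libraries shifted to the same median, 13 were lower and 0 higher, against 38.3% of genes lower. Those lower included Dazl, a germ cell RNA-binding protein, at -0.27, Adad1, a germline RNA-binding protein, at -0.25, Nanos3 at -0.25, the helicase Ddx25 at -0.22 and Mov10, the paralog of Mov10l1, at -0.15. On the spermatid slope, Ybx2, an RNA-binding protein of meiotic and haploid cells, was higher at 0.44 and Papolb, a testis poly(A) polymerase, at 0.21, where 1.75% of genes were called. Both calls rested on KO_vehicle 3, which had 105 FPKM of Ybx2, against at most 16.2 FPKM in the other libraries, and 5.86 FPKM of Papolb, against at most 2.0965 FPKM. Without that library the slopes were 0.16 for Ybx2 (adjusted p = 0.296) and 0.10 for Papolb (adjusted p = 0.446). Of 3 partners of PRMT5, Coprs was lower at -0.13.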

How the data were processed

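The authors deposited FPKM per gene for 16 libraries of polyA RNA. Per the submitters' processing notes, the tools were FastQC, STAR 2.7.10a and edgeR 4.0.14 and the builds mm10 and GRCm39, without their roles. The sources used here give no read counter, gene lengths or scaling. Divisors of the deposited FPKM were estimated from the low values: 92.9% to 94.2% of values worth fewer than 100 reads came within 0.1 of a whole read, and multiples of these divisors would also give whole reads. No column was without a sample. Libraries of a group correlated at 0.881 to 0.985 and none were identical.

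Values were tested as log2(FPKM + 0.5) using limma 3.58.1 (R 4.3.3), with 1 mean per group, variances moderated with a trend, and Benjamini-Hochberg adjustment over all genes tested (threshold 0.05). Genes with at least 1 FPKM in at least 4 libraries entered: 12907 genes, with 3476 left out. There were 7 comparisons and 2 slopes (12884 genes outside the 2 lists). The 7 comparisons and the slope on the contractile list were checked on simulated data, and the slope on the spermatid list was not. Where libraries of a group are not separate animals, p-values reflect technical spread. The members, lists and tests were chosen with earlier results of these data known. All members are named with their level; Piwil1, Piwil2, Piwil4, Ddx4, Mov10l1 and Mael are followed in every comparison, with the 3 members of smallest p in each; Gtsf1, Tex15, Wdr77 and others given beside the slopes were picked after their values were seen. Promoter motifs were counted in Python 3.11.15. Alternatives were other pseudocounts (0.1 and 1), filters, scaling, covariates, a replicate block and leaving out each library.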

Additional observations from a re-analysis of the deposited data

Results flagged for a closer look

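In 6 of 136 groups of 4 libraries (4.41%), 1 library stood far from the other 3 by the gap over the range (Dixon's 95% value for 4 samples, 0.829); chance flags about 1 group in 20. Piwil1 was 18.4 FPKM in KO_vehicle 3, against 5.43 to 6.13 FPKM in the other 3 KO_vehicle libraries. Tex19.1 was 70.3 FPKM in WT_PD 3, against 95.8 to 99.1 FPKM in the rest of WT_PD. Prmt5 was 33.4 FPKM in WT_PD 1, against 26.6 to 27.1 FPKM. In WT_vehicle, Tdrd1 was 47.8 FPKM in library 1 (41.7 to 42.1 FPKM elsewhere), Asz1 was 22.3 FPKM in library 3 (25.6 to 26.1 FPKM) and Ddx4 was 84.1 FPKM in library 3 (110 to 115 FPKM). KO_vehicle 3 is also the library with the most spermatid transcripts, and WT_PD 3 and WT_vehicle 3 had the highest contractile means of their groups; the part of either in these values was not tested.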

How the results depend on the processing

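Counts of calls in the 7 comparisons between groups stayed at 0 under the alternatives run. Of the alternative values of counts, 514 stayed within 1.5 times and 34 moved; of those of named members, 839 kept direction and side of the threshold, 22 lost the call and 11 changed sign. Members called on the spermatid slope were 0 with a pseudocount of 0.1, a filter at 5 FPKM, median-shifted libraries, the set of library numbers as a term, the replicate block, Acta2 and Prm1 in place of the list means, and without the 2 columns written with more decimals, and 2 with no filter. Genes called on that slope were 788 with no filter, 27 with the filter at 5 FPKM, 97 with the replicate block and 147 with Acta2 and Prm1. On the contractile slope, genes called lower were 1741 with the filter at 5 FPKM, where fewer genes were tested, and 4930 with median-shifted libraries (shifts of -0.15 to 0.09 on the log2 scale), which also gave 0 members higher. Within the first and second sets of library numbers, with fewer samples and 1 mean for all groups, 10.8% and 12.4% of genes were called higher, 1.68% and 1.06% lower, 5 and 4 members lower and 0 higher. Trim28 reversed to -0.034 with median-shifted libraries, -0.044 with the set term, -0.038 with the replicate block and -0.080 within the second set. Within the first set, Tex19.1 was 0.059 and Gpat2 0.11 for PD0325901 in WT, Piwil1 -0.017 for knockout over both treatments, and Piwil1 0.11 and Gpat2 0.073 for PD0325901 over both genotypes. Leaving out 1 library gave 51 to 252 genes and 0 to 1 members on the spermatid slope, and 1607 to 2745 genes lower on the contractile slope; the spermatid slope ranged from -0.013 to 0.065 for Mybl1 and from -0.034 to 0.066 for Pld6, both lowest without KO_vehicle 3. The cause was not tested. The replicate block was not taken as pairing: deviations of same-numbered libraries correlated at -0.53 to 0.73, 10 of 24 pairs were over 0.1, and 5 of 16 libraries were closest to their own number. The sets, the set term and the columns with more decimals were chosen after seeing the data. With 4 libraries a group, the spread limits small differences, and members near 1 FPKM rest on few reads (Mybl1 148 to 534).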

Other observations

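Other chromatin factors that silence transposons, outside the list of members, were also expressed. Of 26 listed, 23 were tested, 0 were called between groups, and 11 were lower and 0 higher on the contractile slope, against 20.6% of all genes lower and 32.2% higher (15 lower, against 38.3% of genes, with libraries shifted to the same median). Those lower included Setdb1, a histone methyltransferase, at -0.13, and Dnmt3b, a DNA methyltransferase, at -0.18. Dnmt3l, a cofactor of de novo methylation, stood at 0.169 to 0.658 FPKM and was not tested. Of 13 genes of the microRNA machinery, 4 were lower on the same slope (Dicer1, Drosha, Tnrc6c and Xpo5), against 20.6% of genes. The 3 higher were Ago2 at 0.53, Prkra at 0.20 and Ago1 at 0.11, against 32.2% of genes. With libraries shifted to the same median, 7 were lower and 2 higher, against 38.3% of genes lower and 23.3% higher.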
